A study of Danio rerio with 23 samples.

Results

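The 200 transcripts with the most reads in the zebrafish ovary are described here. They were found by dividing each transcript's estimated count by the total of its library, scaling the result to counts in 1000000 (CPM), averaging it over 23 libraries and taking the first 200 of the 57775 transcripts listed, or 0.346% of them. The ranking therefore rests on the measured levels, so that the levels and the share of the library are a description. The rule did not compare groups. A transcript high in only a few libraries can still enter through them, as ENSDART00000050238.6 and ENSDART00000061165.7 did. Tests of this pair are not free of the choice. CPM is not divided by transcript length. A long transcript yields more reads than a short one at the same number of molecules, so the order is one of reads, not of molecules.

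Ovaries came from female Danio rerio that were either mutant in both copies of the glucocorticoid receptor gene nr3c1 throughout the body (GRKO, nr3c1 -/-) or wild type (WT). The study sampled each genotype at 6 and at 3 months of age to ask what the receptor's loss does to ageing of the ovary. There were 6 GRKO and 6 WT libraries at 6 months, and 6 GRKO and 5 WT libraries at 3 months. Polyadenylated RNA was captured, and neither the strain, the kind of nr3c1 allele nor whether each library is a separate fish is given in the sources used here, so p-values measure the spread between libraries. Library totals were 29489146 to 39785753 estimated counts. GRKO library 4 at 3 months is a mutant by title and a wild type by its genotype field, and was kept with the mutants. WT libraries 2 and 6 at 3 months held the lowest shares of counts in the members, 24.1% and 27.0%. GRKO libraries 10 and 12 at 6 months had ENSDART00000050238.6 at 29297 and 15278 CPM, far above the rest of their group. Their shares in the members, 29.4% and 32.6%, lay within the 27.2% to 32.6% of that group. In these respects all of these libraries are said below to stand apart. Counts of members called between genotypes are given with and without them. The files do not pair identifiers with genes: matches were found for 0 identifiers in the table of gene names and for 0 of the 200 members in that of RefSeq genes. Members are therefore given by identifier, and neither their sequences, the markers of ovarian cell types nor nr3c1 itself were analysed here.

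As background, a fish ovary holds oocytes at every stage of growth, surrounded by follicle cells. A growing oocyte makes and stores messenger RNA in large amounts, since the early embryo lives on this maternal supply until its own genome becomes active. Abundant ovarian messages in fish are known to include those for the egg envelope, ribosomal proteins and other products that serve the egg and the early embryo. The glucocorticoid receptor binds cortisol and then controls the transcription of its target genes. Which of these classes the members belong to was not analysed here, and in whole ovaries fewer cells of a type and less RNA per cell cannot be told apart.

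The members took up about the same part of the library in each group. They held 30.6% ± 2.04 (SD, n = 6) of the estimated counts in GRKO and 31.3% ± 1.25 (n = 6) in WT at 6 months, and 30.6% ± 2.22 (n = 6) in GRKO and 29.8% ± 4.01 (n = 5) in WT at 3 months. The difference between genotypes was smaller than the spread between libraries at both ages. At 6 months the share ran from 27.2% to 32.6% in GRKO libraries and from 30.0% to 33.7% in WT libraries. At 3 months it ran from 28.1% to 33.1% in GRKO libraries. The 5 WT libraries at 3 months held 24.1% in library 2, 27.0% in library 6, 32.0% in library 13, 32.7% in library 12 and 33.1% in library 10. Library 2 had the lowest share of all 23 libraries and library 6 the next lowest, below every GRKO library, while the other 3 were within the range of the rest.

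**Figure D1:**
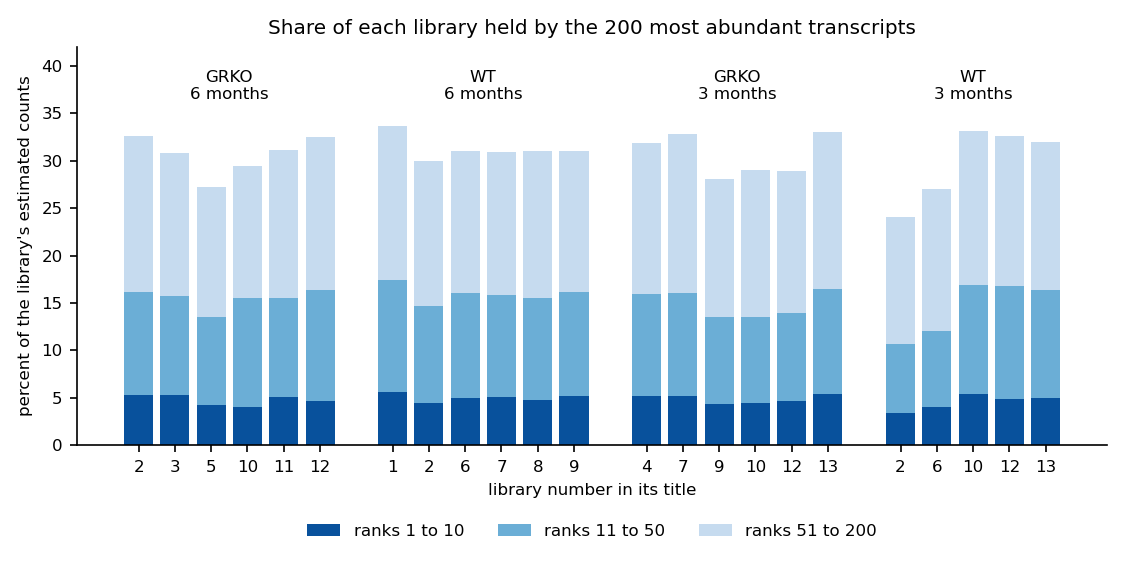
Percent of each library's estimated counts held by the 200 members, 1 bar per library, split by rank over all libraries (ranks 1 to 10, 11 to 50 and 51 to 200) and grouped by genotype and age. Bars reach 24.1% in WT library 2 and 27.0% in WT library 6 at 3 months, and 27.2% to 33.7% in the other 21 libraries.

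Counts were spread over many transcripts rather than a handful. The 10 leading members together held 4.76% ± 0.548 of the counts in GRKO and 4.99% ± 0.387 in WT at 6 months (SD, n = 6 each), and 4.86% ± 0.426 (n = 6) in GRKO and 4.53% ± 0.804 (n = 5) in WT at 3 months. The first 50 held 10.6% to 17.5% of a library and the first 100 held 16.6% to 25.7%. The mean CPM at rank 1 was 12.9 times that at rank 200. Across the libraries, 562 to 1059 transcripts of a library's own ranking were needed to reach 50% of its counts. The smallest number came from GRKO library 12 and the largest from GRKO library 5, both at 6 months.

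**Figure D2:**
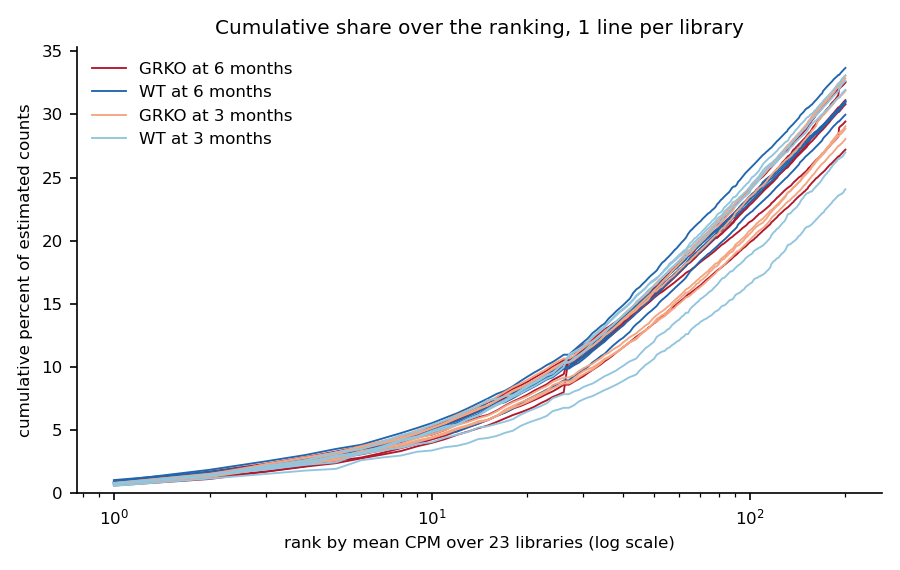
Cumulative percent of estimated counts over the members, in order of mean CPM (x axis, log scale), 1 line per library coloured by group. The lowest line, ending at 24.1%, is WT library 2 at 3 months, and the step at rank 27 in some lines is ENSDART00000050238.6, described further on.

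The ranking held well in most libraries. A library's own first 200 transcripts included 156 to 192 of the members, with a median of 182. The count was lowest in WT libraries 2 (156) and 6 (161) at 3 months, and GRKO libraries 10 at 3 months (168) and 12 at 6 months (169) came next. In all, 117 members were among the first 200 of every library, 6 were so in fewer than 12 libraries, and 332 different transcripts reached the first 200 of any library. By group means, the first 200 shared 189 members in GRKO and 188 in WT at 6 months, and 189 in GRKO and 190 in WT at 3 months. Ranking by the median changed 5 of the 200, and ranking by the mean of the 4 groups or by CPM rescaled with TMM factors (trimmed mean of M values, edgeR's correction for composition) changed none.

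The 5 leading members were high in every library. ENSDART00000099360.5, at rank 1, averaged 7564 ± 976 CPM in GRKO and 8824 ± 1052 CPM in WT at 6 months (SD, n = 6 each), and 7691 ± 453 CPM in GRKO (n = 6) and 7318 ± 836 CPM in WT (n = 5) at 3 months. ENSDART00000024598.9, at rank 2, averaged 6599 ± 1148 and 7471 ± 961 CPM in GRKO and WT at 6 months, and 6642 ± 687 and 6518 ± 550 CPM in GRKO and WT at 3 months. Across all 23 libraries the highest value of these was 1.78 and 1.76 times the lowest. ENSDART00000173347.2 at rank 3 ranged from 3601 to 9699 CPM and ENSDART00000185711.1 at rank 4 from 2680 to 5538 CPM. ENSDART00000123007.3 at rank 5 was wider, from 1380 to 6431 CPM, with both ends in WT at 3 months. With all libraries kept, none of the 5 differed between genotypes past an adjusted p of 0.05 at either age (edgeR quasi-likelihood test, adjusted over all 30849 transcripts tested). The lowest was adjusted p = 0.205 for ENSDART00000185711.1 at 3 months. ENSDART00000123007.3 at 3 months failed in 34 of 36 alternative fits and passed in the rest. Its WT libraries 10, 12 and 13 had 6431, 5531 and 5524 CPM, above all GRKO libraries (2163 to 4908 CPM). WT libraries 2 and 6 had 1380 and 1991 CPM, below all of them.

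At the lower end, the mean CPM was 616 for ENSDART00000102410.5, the last but one, and 609 for ENSDART00000023336.9, at rank 200. Just outside stood ENSDART00000075495.3 at 607 CPM and ENSDART00000142026.2 at 598 CPM. The limit of 200 thus fell within a smooth decline.

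Members differed in how steady they were, and as a set they were not steadier than the transcripts ranked just below them. The coefficient of variation (SD over mean) across 23 libraries had a median of 20.1% for the members, 17.2% for the next 200 transcripts in the ranking, 17.0% for the 600 after those and 47.1% for all 30849 tested transcripts, many of which have few reads. Within groups, the members' median was 15.2% in GRKO and 10.8% in WT at 6 months, and 13.0% in GRKO and 23.6% in WT at 3 months. It was over 50% for 3 members in GRKO and 7 in WT at 6 months, and for 8 in GRKO and 35 in WT at 3 months. For the next 200 transcripts the medians were 14.4% in GRKO and 9.98% in WT at 6 months, and 11.0% in GRKO and 18.8% in WT at 3 months. In 87 of the 200 members (43.5%) the highest library was under 2 times the lowest, against 12.8% of all tested transcripts. The steadiest member was ENSDART00000055490.7 at rank 173, with 649.7 to 752 CPM over all libraries and a coefficient of variation of 4.10%.

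The low values were not spread evenly over the libraries. WT library 2 at 3 months held the lowest of 23 values for 66 of the 200 members, and WT library 6 at 6 months came next with 18. The highest value fell in WT library 10 at 3 months for 28 members and in GRKO library 12 at 6 months for another 28. GRKO libraries 2 and 11 at 6 months and 13 at 3 months held the lowest value of no member.

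All 200 members stood above 100 CPM in the median library except ENSDART00000050238.6 and ENSDART00000061165.7, which owed their place to a few libraries. ENSDART00000050238.6 ranked 27th by mean and 15989th by median. In GRKO at 6 months it stood at 29297 CPM in library 10 and 15278 CPM in library 12, and at 0 to 2.11 CPM in the other 4. In WT at 6 months it ranged from 0 to 561.7 CPM with a median of 22.3 CPM, and in GRKO at 3 months from 0.199 to 48.9 CPM with a median of 2.78 CPM. In WT at 3 months it had 10065 CPM in library 12, 4694 in library 10, 289 in library 13, 0.355 in library 2 and 0.0858 in library 6. It was thus the most read transcript of the ovary in GRKO libraries 10 and 12 at 6 months and in WT library 12 at 3 months, and close to absent in other libraries of the same groups.

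ENSDART00000061165.7, ranked 191st by mean and 18921st by median, followed it. It reached 6841 and 5019 CPM in GRKO libraries 10 and 12 at 6 months, and 2028 and 964 CPM in WT libraries 12 and 10 at 3 months. It stood at 118 CPM in WT library 9 at 6 months and at 72.9 CPM in WT library 13 at 3 months, and the remaining 17 libraries had 18.0 CPM or less. Over 23 libraries the CPM of both correlated at r = 0.985, which rests on the few high libraries, and on the log2 scale with 0.5 added at r = 0.993. Together they made up 3.61% and 2.03% of the counts in GRKO libraries 10 and 12 at 6 months. Without the pair the other members held 29.7% ± 2.58 in GRKO and 31.3% ± 1.25 in WT at 6 months (SD, n = 6 each). With all libraries kept, neither passed a genotype test in edgeR. For ENSDART00000050238.6 and ENSDART00000061165.7 adjusted p was 0.213 and 0.164 at 6 months and 0.111 and 0.114 at 3 months. Each failed in 35 of 36 alternative fits at 6 months and in 32 of 36 at 3 months, and passed in the rest. Both had the largest interactions of genotype and age among the members (log2 14.46, SE 4.30, and 14.06, SE 4.02), which did not pass either (adjusted p = 0.370 and 0.322, edgeR). Each interaction failed in 34 of 35 alternative fits and passed in the remaining fit. Both became members through their few high libraries, so these tests rest on values the ranking used and nothing is read from them.

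A further 7 members fell below 100 CPM in 1 to 6 libraries while reaching over 1000 CPM in others. These 9, the pair included, were picked out after their values were seen and all had fractional estimated counts in some libraries. Reads of near-identical transcripts are split between them, and whether a low value reflects reads given to another transcript was not tested. ENSDART00000104107.5, at rank 153, was at 839 to 1483 CPM in the 6 GRKO libraries and 0.0584 to 887 CPM in the 6 WT libraries at 6 months. At 3 months it was at 709 to 1473.8 CPM in GRKO and at 0, 0.0122, 0.039, 875 and 1618 CPM in WT. No GRKO library was low, and 6 of the 11 WT libraries had under 1 CPM. The groups overlapped all the same, and the difference did not pass at 6 months (adjusted p = 0.499) or at 3 months (adjusted p = 0.767, edgeR).

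ENSDART00000027851.7, at rank 63, fell on 3 separate levels. WT library 13 at 3 months had 0.374 CPM. WT libraries 8 and 9 at 6 months had 946 and 914 CPM, and WT libraries 10 and 12 at 3 months had 865 and 849 CPM. The other 18 libraries, all 12 of GRKO among them, had 1668 to 2220 CPM, and no library lay between 946 and 1668 CPM. ENSDART00000138012.2, at rank 156, was at 0 CPM in WT library 6 at 6 months and in WT library 6 at 3 months, and at 429 CPM or more in the other 21. ENSDART00000182072.1, at rank 152, had 0.478 and 1.07 CPM in WT libraries 7 and 6 at 6 months and 216 CPM or more elsewhere. ENSDART00000189732.1, at rank 88, was at 0 CPM in WT libraries 2 and 6 at 3 months and at 322 CPM or more in the other libraries. ENSDART00000137794.2, at rank 64, had 15.7 and 45.3 CPM in these 2 WT libraries and 90.9 CPM in GRKO library 10 of that age. ENSDART00000186787.1, at rank 90, was at 0.742 to 92.4 CPM in WT libraries 7 and 8 at 6 months and 10, 12 and 13 at 3 months. It stood at 203 CPM in WT library 1 at 6 months and at 986 CPM or more in all other libraries. Among these 7 members, 1 GRKO library was under 100 CPM for 1 member, and no other GRKO library was for any. The share of all tested transcripts with such a pattern is not given here, so no difference between genotypes is read from it.

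**Figure D3:**
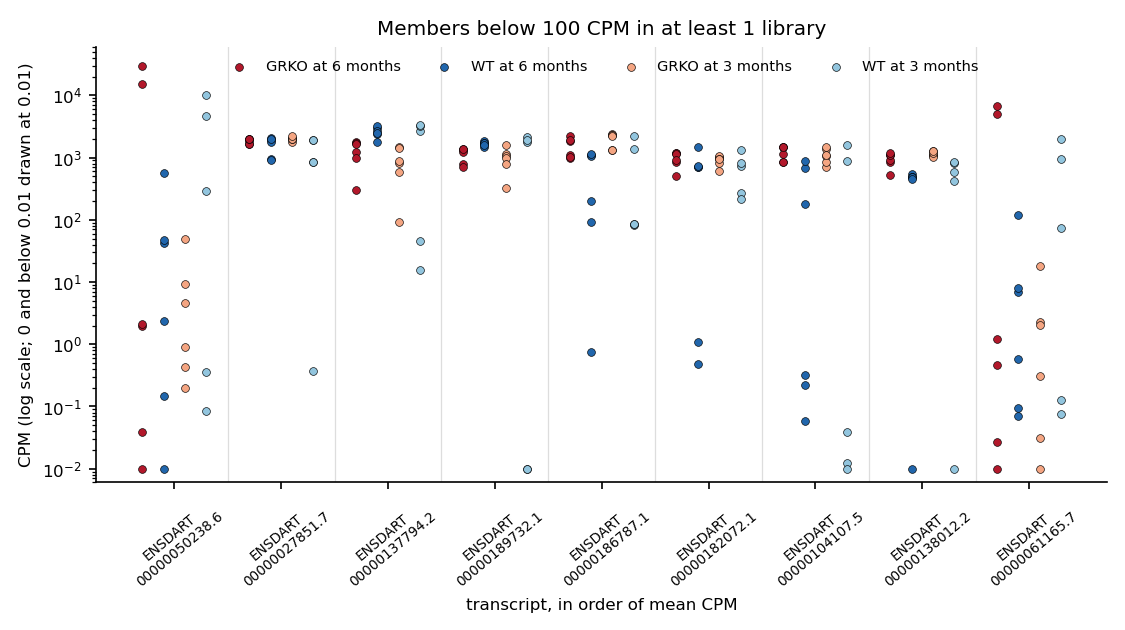
CPM (log scale) of the 9 members that fell below 100 CPM in at least 1 library, 1 point per library coloured by group, with values below 0.01 drawn at 0.01. The outer columns are ENSDART00000050238.6 and ENSDART00000061165.7, and ENSDART00000104107.5 has 6 WT libraries under 1 CPM. These members were picked for their low values, and the share of all tested transcripts with such values is not given. No difference between genotypes is therefore read from the columns.

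Between genotypes at 3 months, the members that passed the test were all higher in GRKO, by less than 2-fold. Of the 200 members, 14 (7.0%) were called, 14 higher and 0 lower (edgeR quasi-likelihood test, adjusted p under 0.05). Of all 30849 tested transcripts 8.39% were called, 2.66% higher and 5.73% lower. The called share was thus near the background and its direction was not. Their log2 fold changes ran from 0.40 to 0.97 with a median of 0.58. The median over all members was 0.06 and over all tested transcripts -0.09, both small. At an unadjusted p under 0.05, 38 members differed, 26 higher and 12 lower, where 23.7% of all tested transcripts did. At this limit 2493 of all tested transcripts were higher and 4829 lower. Of the next 200 in the ranking 35 were higher and 6 lower. Every GRKO library lay above every WT library for 19 members, against 2.81% of tested transcripts, and below for 1 member, against 3.18%. By rank, 5 of the called members were in the first 50 ranks, 1 in the next 50, 4 in the 50 after those and 4 in the last 50. Of the next 200 transcripts, 13 were called, 12 higher and 1 lower, so the direction continued below the members.

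This balance changed when WT libraries 2 and 6 were both left out, which leaves WT libraries 10, 12 and 13. In that fit 73 members were called, 26 higher and 47 lower, of which 10 were among the 14. Of all transcripts tested 27.2% then passed, and their split by direction is not given here. The 47 lower ones had a median log2 fold change of -0.73, and 17 of them were in the first 50 ranks. The members' median turned to -0.01. Leaving out WT library 2 alone gave 15 higher and 5 lower (11.1% of all tested). Leaving out WT library 6 alone gave 18 higher and 1 lower (11.3% of all tested). Without WT library 13 at 3 months 9 were called (4.96% of all tested), and with GRKO library 4 counted as WT, after its genotype field, 0 were (1.48% of all tested). With GRKO library 4 left out instead, 12 were called, 12 higher and 0 lower (6.2% of all tested). Limma voom with sample quality weights called 42 higher and 42 lower, and 33.1% of all tested transcripts.

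At 6 months the same number of members was called, in both directions. There were 9 higher and 5 lower in GRKO, 14 in all (7.0%), against 6.05% of all tested transcripts, 2.53% higher and 3.51% lower (edgeR, adjusted p under 0.05). Log2 fold changes of the called members ran from -1.28 to 1.16. The median was 0.05 over all members, -0.02 when library totals alone set the scale, and -0.05 over all tested transcripts. At an unadjusted p under 0.05, 41 members differed, 31 higher and 10 lower, against 21.9% of tested transcripts. At this limit 3128 of all tested transcripts were higher and 3615 lower. Of the next 200 in the ranking 50 were higher and 4 lower. The genotypes were fully separate for 7 members with GRKO above, against 1.9% of tested transcripts, and for 10 with GRKO below, against 2.53%. The last 50 ranks held 7 of the 14 calls.

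Without GRKO libraries 10 and 12 at 6 months, 4 members were called, 2 higher and 2 lower, all among the 14, where 1.99% of transcripts passed. Leaving out GRKO library 12 or WT library 8 alone gave 7, with 3.59% and 4.45% of all transcripts called. Leaving out GRKO library 2, 10 or 11 or WT library 2 or 6 gave 9, with 3.98% to 5.12% of all called, so the calls fell among all transcripts too. Counting GRKO library 4 at 3 months as WT, which changes the shared estimate of spread, gave 8 (4.24% of all). Leaving that library out gave 14 (5.55% of all).

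With all libraries kept, the genotype differences at the 2 ages were alike in direction, and no library enters both. The overlap is given for all libraries only, and the calls behind it changed without those that stand apart. Without WT libraries 2 and 6, 26 members were called higher and 47 lower at 3 months. Without GRKO libraries 10 and 12, 2 were called higher and 2 lower at 6 months. Of the 14 members called at 3 months 7 were also called at 6 months, all higher in GRKO, which is 50% of each list. Over all tested transcripts 1012 were called at both ages, 39.1% of those called at 3 months and 54.3% of those called at 6 months, so the members' share was near the background. No called member had opposite signs at the 2 ages, and of all called transcripts 97.4% from 3 months and 94.2% from 6 months kept theirs. Over all members 164 of 200 (82.0%) had the same sign at both ages, against 74.9% of all tested transcripts. The correlation of the log2 fold changes across members was r = 0.861 without ENSDART00000050238.6 and ENSDART00000061165.7 and r = -0.536 with them. Over all tested transcripts it was r = 0.572 with none left out, so it is not comparable with the r = 0.861. These correlations are across transcripts, which are not independent replicates and share 1 fit. The 7 members higher at both ages together made up 0.974% ± 0.096 of the counts in GRKO and 0.672% ± 0.047 in WT at 6 months (SD, n = 6 each). At 3 months they made up 1.06% ± 0.045 (n = 6) in GRKO and 0.662% ± 0.028 (n = 5) in WT. They were chosen for this difference, so these sums describe its size.

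**Figure D4:**
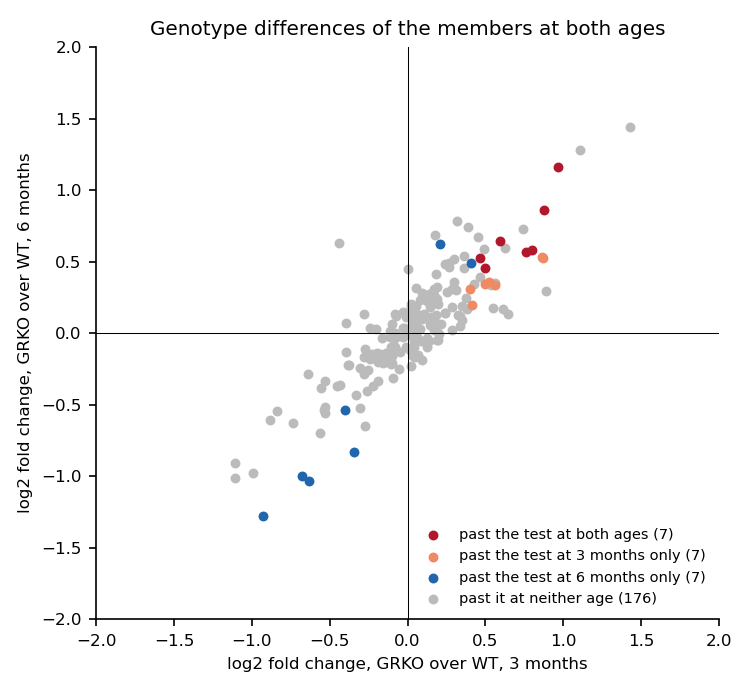
Log2 fold change of GRKO over WT at 3 months (x axis) and at 6 months (y axis), 1 point per member, coloured by whether it passed the edgeR test at an adjusted p of 0.05 at both ages (7 members), at 3 months only (7), at 6 months only (7) or at neither. The 197 members within 2 log2 units lie along a rising diagonal, and 3 lie outside the axes.

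ENSDART00000148168.3, at rank 157, had the largest rise among called members at both ages. At 6 months it had 622 to 1159 CPM in GRKO with a median of 840.5 CPM, and 190 to 486 CPM in WT with a median of 471 CPM. At 3 months it had 1021 to 1479 CPM in GRKO with a median of 1110.3 CPM, and 551, 316, 430, 832 and 824 CPM in WT libraries 2, 6, 10, 12 and 13. All GRKO libraries lay above all WT libraries of the same age. The log2 fold change was 1.16 at 6 months (SE 0.26, 2.24-fold, adjusted p = 0.00927) and 0.97 at 3 months (SE 0.27, 1.95-fold, adjusted p = 0.0302, edgeR). The call at 3 months was lost in 5 of 36 alternatives, among them leaving out GRKO library 10, WT library 10 or both WT libraries 2 and 6 of that age, with adjusted p from 0.00533 to 0.167. At 6 months 2 of 36 lost it, the replicate block and leaving out GRKO libraries 10 and 12, with adjusted p from 0.000268 to 0.239. Its estimated counts were fractional in all 23 libraries.

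ENSDART00000101601.6, at rank 161, had the lowest adjusted p-values of the 4 named members, and its estimated counts were whole in all 23 libraries. At 6 months it had 746 to 1079 CPM in GRKO with a median of 909 CPM, and 404 to 626 CPM in WT with a median of 502 CPM. At 3 months it had 913 to 1218 CPM in GRKO with a median of 1017 CPM, and 609, 625.2, 613, 502 and 436 CPM in WT libraries 2, 6, 10, 12 and 13. The genotypes did not overlap at either age. The log2 fold change was 0.86 at 6 months (SE 0.14, adjusted p = 0.00061) and 0.88 at 3 months (SE 0.15, adjusted p = 0.000715, edgeR). Counting GRKO library 4 as WT lost the call at 3 months and the replicate block lost it at both ages, with adjusted p from 1.36e-07 to 0.0735 at 3 months and from 8.85e-08 to 0.208 at 6 months.

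Of those lower in GRKO at 6 months, ENSDART00000123155.3 at rank 170 had 378 to 534 CPM in GRKO with a median of 445 CPM, and 356 to 1728 CPM in WT with a median of 1232 CPM. WT library 9 was below all 6 GRKO libraries and the other 5 WT libraries were above all of them. At 3 months GRKO libraries had 360 to 519 CPM with a median of 438 CPM, and WT libraries 2, 6, 10, 12 and 13 had 186, 1331, 1120, 1010 and 482 CPM. The log2 fold change at 6 months was -1.28 (SE 0.36, adjusted p = 0.0394, edgeR) and did not pass at 3 months (adjusted p = 0.130). The call at 6 months was lost in 15 of 36 alternatives, with adjusted p from 0.00595 to 0.573. It was lost when any 1 of the 6 GRKO libraries, or WT library 1, 2, 6, 7 or 8, was left out. Estimated counts of ENSDART00000123155.3 were fractional in 18 of the 23 libraries.

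ENSDART00000147197.2, at rank 65, had 794 to 1285 CPM in GRKO with a median of 1028 CPM, and 1765 to 2494.5 CPM in WT with a median of 2272 CPM at 6 months. The groups did not overlap, and the log2 fold change was -1.03 (SE 0.29, adjusted p = 0.0352, edgeR). At 3 months GRKO libraries had 1014 to 1566 CPM with a median of 1237 CPM. WT libraries 2, 6 and 10 had 2781, 3095 and 2416 CPM, above all of them, and WT libraries 12 and 13 had 610 and 856 CPM, below all of them (adjusted p = 0.196). The call at 6 months was lost in 12 of 36 alternatives, with adjusted p from 0.00442 to 0.618, including each of GRKO libraries 3, 5, 10 and 11 and WT libraries 1, 2, 7, 8 and 9 left out. Estimated counts of ENSDART00000147197.2 were fractional in 21 of the 23 libraries.

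**Figure D5:**
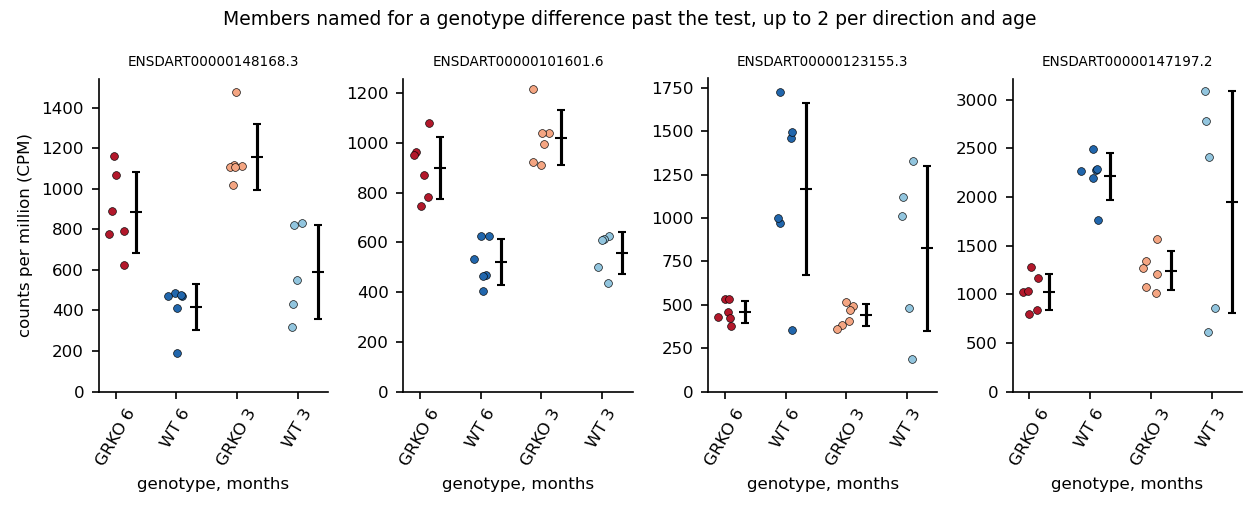
CPM of the 4 members named for a genotype difference past the test, up to 2 with the largest fold in each direction and age, 1 point per library by genotype and age, with mean and SD beside them. The first 2 are higher in GRKO at both ages with no overlap, and the other 2 are lower in GRKO at 6 months, where WT library 9 of ENSDART00000123155.3 lies at 356 CPM, below the mutants.

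Age moved no member past the test in either genotype. In WT, 0 of 200 members were called between 6 and 3 months, against 0.00972% of all tested transcripts (edgeR, adjusted p under 0.05), and DESeq2 and limma called 0 as well (1.34% and 0.0681% of all). At an unadjusted p under 0.05, 23 members differed, 1 higher and 22 lower at 6 months, against 11.3% of tested transcripts in either direction. At this limit 1271 of all tested transcripts were higher and 2206 lower. Of the next 200 in the ranking 3 were higher and 51 lower. The 2 ages did not overlap for 2 members with 6 months above, against 0.93% of tested transcripts, and for 1 with 6 months below, against 0.182%. In GRKO, 0 of 200 were called, against 0.0162% of all tested transcripts (edgeR). DESeq2 called 7, 2 higher and 5 lower at 6 months, and 2.27% of all transcripts. Limma called 7, all lower, and 2.31% of all. At an unadjusted p under 0.05, 20 members differed in GRKO, 3 higher and 17 lower, against 10.3% of tested transcripts. At this limit 1915 of all tested transcripts were higher and 1264 lower. Of the next 200 in the ranking 3 were higher and 35 lower, so the members' direction was not theirs alone. Ages did not overlap for 0 members with 6 months above, against 0.353%, and for 2 with 6 months below, against 0.723%. The 2 age comparisons share no library with each other.

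Fold changes with age were small for most members. An absolute log2 fold change of 1 or more was seen for 2 of 200 in WT and 2 in GRKO. For ENSDART00000050238.6 and ENSDART00000061165.7, which follow a few libraries, log2 was 9.56 and 9.18 in GRKO and -4.90 and -4.89 in WT. None of these passed in edgeR (adjusted p = 0.267 and 0.248 in GRKO, 0.541 and 0.503 in WT). The median log2 fold change of the members between 6 and 3 months was -0.04 in WT, 0.01 with upper-quartile factors and 0.05 with library totals alone, so its sign was not fixed. In GRKO it was -0.06, and negative under each of the 4 scalings tried. The genotype by age interaction was past the test for 0 of 200 members, against 0.00648% of all tested transcripts (edgeR), while DESeq2 called 2 (0.998% of all) and limma 0 (0.00324%). At an unadjusted p under 0.05, 2 members had an interaction, against 4.83% of tested transcripts. These 2 were ENSDART00000050238.6 and ENSDART00000061165.7, whose values follow single libraries as given above. A genotype difference that passed at 1 age and not at the other is therefore not shown to differ between ages.

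Reads of most members were shared with other transcripts. Of the 200, 177 had a fractional estimated count in 1 library or more, so their level depends in part on how reads were split. Values are printed to 6 significant digits, so a fraction cannot be seen at 100000 counts or more, which 56 members, the first 4 ranks among them, reached in some library. Of the 144 members below that in every library, 13 (9.03%) had whole counts throughout, within 0.001 of the printed value, against 13.0% of tested transcripts under the same limit.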

How the data were processed

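Whole-ovary RNA-seq libraries (23) were deposited as 1 estimated count per transcript and library. Per the submitters' processing notes, kallisto 0.48.0 and the build GRCz11 were used. It splits reads that fit several transcripts in proportion, so 74.2% of nonzero deposited estimated counts were not whole. How strand was handled, which annotation was used and how reads were filtered is not given in the sources used here. The members and lists were chosen with earlier results of these data known. CPM was computed from library totals. Counts were rounded and fitted with edgeR 4.0.16 (R 4.3.3; robust quasi-likelihood, TMM factors 0.852 to 1.11) on all libraries, 1 mean per group, after the default filter (minimum count 10, total 15), which kept 30849 transcripts with 99.8% to 99.9% of the counts and all 200 members. P-values were adjusted by Benjamini-Hochberg over all of these. SE is the log2 fold change over the square root of F. The test was also run on simulated counts in which no library stood apart. That run therefore does not cover the effect of the libraries that stand apart here. Named by rule were the 5 leading members, the 2 on either side of the limit, the extremes of variation and, as identifiers carry no gene names, up to 2 called members per direction and comparison with the largest fold change and all libraries of the first group on one side of the other group's median. Planned marker lists needed gene names and were not analysed here. Alternatives included DESeq2 1.42.0 and limma 3.58.1 (voom with sample quality weights). Figures used matplotlib 3.10.9.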

Additional observations from a re-analysis of the deposited data

Results flagged for a closer look

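Of 68 groups examined for a library far from the others, 8 held one. The rule flags about 1 in 20 unrelated groups by chance, but these groups are not independent. ENSDART00000061165.7 and ENSDART00000050238.6 rise and fall together and were both named for their wide spread. The number flagged is therefore not set against that rate. WT library 1 at 6 months held the highest share of counts in the members, 33.7%, well above the other WT libraries of that age. ENSDART00000102410.5 was lowest in GRKO library 12 at 6 months, at 491 CPM. ENSDART00000148168.3 was lowest in WT library 6 at 6 months, at 190 CPM, and highest in GRKO library 10 at 3 months, at 1479 CPM. ENSDART00000061165.7 was highest in WT library 9 at 6 months, at 118 CPM, and in GRKO library 12 at 3 months, at 18.0 CPM. ENSDART00000050238.6 was highest in the same 2 libraries, at 561.7 CPM and 48.9 CPM.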

How the results depend on the processing

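Counts of members past the test were compared over 35 or 36 other fits and 5 other lists per comparison. At 3 months (14 members) DESeq2 gave 22 (13.3% of all transcripts), limma voom 84, only the groups compared 9 (5.42%), GRKO library 4 counted as WT 0 and WT libraries 2 and 6 left out 73. At 6 months (14) GRKO libraries 10 and 12 left out gave 4 and GRKO library 4 counted as WT gave 8. For age in GRKO (0) DESeq2 and limma voom gave 7 each and leaving out WT libraries 2 and 6 at 3 months gave 1. For the interaction (0) DESeq2 gave 2. The first 100 transcripts gave 6 at 3 months and 6 at 6 months, and the first 500 gave 35 and 33, and 1 for age in GRKO, by the size of the list. Leaving out 1 library at a time gave 9 to 20 at 3 months, 7 to 17 at 6 months and 0 for both age comparisons and the interaction. At 3 months the 9 came without WT library 13, with 4.96% of all tested transcripts called. The 20 came without WT library 2, with 11.1% of all called, so the share over all transcripts moved too. Shares for the lowest counts at 6 months are given above. The cause of the other changes was not tested. The share held by the first 100 was 22.5% in GRKO and 23.5% in WT at 6 months and 22.2% in GRKO and 21.6% in WT at 3 months, and by the first 500 it was 42.3%, 42.1%, 42.8% and 41.2%. Leaving out 1 library moved the members' share within 30.2% to 31.3% (GRKO) and 30.8% to 31.5% (WT) at 6 months, and 30.1% to 31.1% (GRKO) and 28.9% to 31.2% (WT) at 3 months. The genotype fold changes of the 4 members named for one kept their sign in these fits.

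Titles in different groups share some library numbers. Same-numbered libraries did not all deviate together (r over tested transcripts of -0.384, 0.149 and 0.0593 for numbers 10, 12 and 13 at 3 months), and 1 of these 6 libraries correlated best with its own number. For number 2 at 6 months r was 0.00841. Between ages r was 0.399 and -0.185 for numbers 2 and 6 in WT, and -0.0185 and -0.122 for numbers 10 and 12 in GRKO. Over the members alone r ran from -0.717 to 0.855. So few pairs cannot decide what a shared number stands for. With the number as a replicate block 2 members were called at 3 months, both lower in GRKO, against 0.82% of all tested transcripts. At 6 months 0 were called, against 0.0551% of all. For age in either genotype and for the interaction 0 were called as well. The block takes many degrees of freedom. Small folds between groups of 5 or 6 libraries may be missed, and transcripts that share reads limit what 1 identifier's level means.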
